A study of Mus musculus with 2 samples.

Results

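The 10 genes described here mark the epicardium, the outer epithelial layer of the heart, and mesothelium, the related lining of the body cavities. They are Wt1, Upk1b, Upk3b, Msln, Lrrn4, Bnc1, Krt8, Krt18, Krt19 and Mab21l2, chosen by symbol from the 34236 gene symbols of the deposited tables, and each had exactly 1 row. RNA sequencing had been done on mouse hearts at embryonic day 12.5 from animals of strain Mixed C57BL/6 x 129S6, with no treatment and no altered gene named in the labels. Replicate 1 and replicate 2 form a single group of 2 libraries, so no conditions were compared. The labels do not say whether the libraries came from separate embryos or pools, and the spread between them may be technical. Values are FPKM (fragments per kilobase of transcript, corrected for how many fragments a library had mapped), and means are given ± SD over the libraries (n = 2).

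The epicardium forms when cells of the proepicardium spread over the bare myocardium. Some of its cells later lose epithelial character and move into the heart wall, where they give rise to fibroblasts and to mural cells of the coronary vessels. The layer keeps traits of a simple epithelium, among them keratin filaments, together with genes that mesothelium of the lung, liver and abdomen also uses. In whole-heart RNA, fewer cells of this layer and less RNA per cell cannot be told apart.

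All 10 marker genes reached 1 FPKM in both libraries, against 52.4% of protein-coding symbols. The members were picked as known genes of this tissue, so that difference describes the choice. Their levels ran from 2.10 ± 0.0883 FPKM for Mab21l2 to 63.1 ± 0.434 FPKM for Upk3b, with a median of 7.39 FPKM. The median over the 11656 protein-coding symbols at 1 FPKM or more in both libraries was 10.9 FPKM, and 3 of the 10 marker genes lay above it. Their values summed to 128 FPKM in replicate 1 and 131 FPKM in replicate 2, which is 0.0331% and 0.0342% of the summed FPKM of the libraries. Upk3b alone made up 48.9% of the sum of the 10 genes in replicate 1 and 48.4% in replicate 2.

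**Figure D1:**
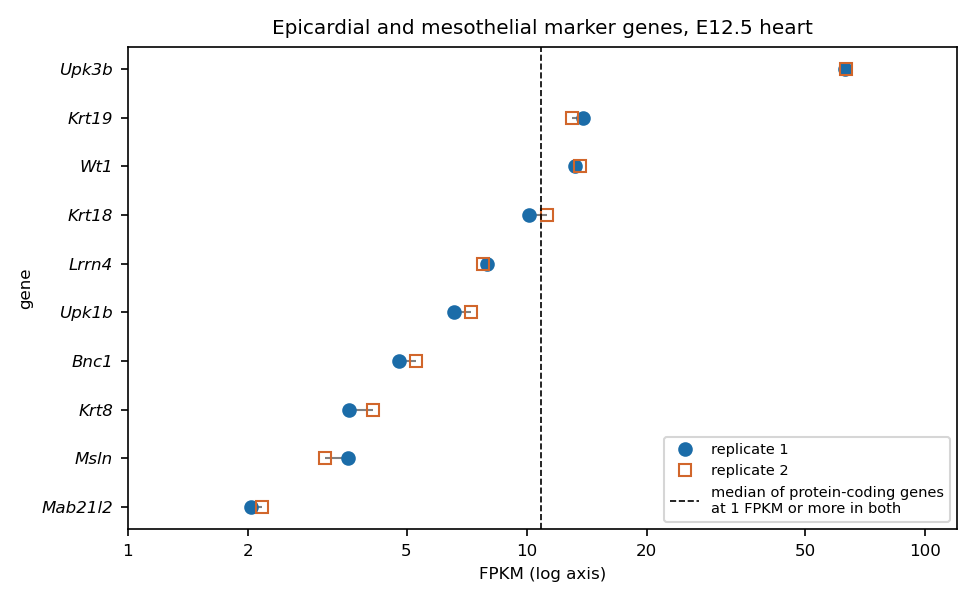
FPKM (log axis) of the 10 marker genes in replicate 1 (filled circles) and replicate 2 (open squares), ordered by mean, with the median of protein-coding genes at 1 FPKM or more in both libraries as a dashed line. Upk3b stands at 62.8 and 63.4 FPKM, and the other 9 genes lie between 2.04 and 13.8 FPKM.

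Regulators of transcription or cell fate make up 3 of the genes. Wt1, a zinc-finger transcription factor needed for the epicardium to supply cells to the heart wall, stood at 13.2 FPKM in replicate 1 and 13.6 FPKM in replicate 2 (chromosome 2, 104966686 to 105013773, plus strand, mm9). The libraries thus gave nearly the same value, and 57.6% of the detected protein-coding symbols were lower. Bnc1, which encodes the zinc-finger protein basonuclin 1, was at 4.78 FPKM in replicate 1 and 5.29 FPKM in replicate 2 (chromosome 7, 89111558 to 89137185, minus strand). A stretch of 99 bases of Bnc1 is identical to the pseudogene 4833418N17Rik on the opposite strand, which was listed at 0 in both libraries. Mab21l2, whose loss in mice disturbs the formation of the proepicardium, was the lowest member at 2.04 and 2.17 FPKM in replicates 1 and 2 (chromosome 3, 86349503 to 86352205, minus strand). It lay above only 7.91% of the detected protein-coding symbols.

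Relatives of these regulators were lower. Bnc2, the paralogue of Bnc1, was listed at 0.304 FPKM in replicate 1 and 0.223 FPKM in replicate 2, and the log2 ratio of Bnc1 over Bnc2 after adding 1 FPKM to each was 2.26 ± 0.15. Mab21l1, the closest relative of Mab21l2, was at 0.168 and 0.105 FPKM, for a log2 ratio of 1.45 ± 0.10 on the same scale. The third relative, Mab21l3, was at 0.369 ± 0.0157 FPKM. Ratios of a member to a related gene were read against 0.32 log2 units, the size that 95% of 12637 symbols stayed under when replicate 2 was set against replicate 1. These symbols have a mean level of at least 1 FPKM. Both of these ratios were larger and had the same sign in both libraries.

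Mab21l2 has a single exon and lies inside the span of Lrba, a gene for a vesicle-trafficking protein on the opposite strand. Lrba itself was at 2.31 FPKM in replicate 1 and 2.40 FPKM in replicate 2, and the log2 ratio of Mab21l2 over Lrba was -0.11 ± 0.01. The host and the nested gene were therefore not separated beyond the spread between the libraries. In the GENCODE annotation of GRCm38, transcripts of Lrba of all types share 1097 exonic bases with Mab21l2, whose longest coding transcript has 2703 bases. The longest identical stretch found, 1035 bases or 38.3% of that transcript, lies in a transcript of Lrba that keeps an intron. Whether the authors' counting used strand is not given in the sources used here, so reads from Lrba cannot be told apart from reads of Mab21l2, and the level of Mab21l2 is uncertain.

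Wt1 was also set beside regulators of the epicardium that are not among the 10. Tcf21, a bHLH factor of epicardial cells that become fibroblasts, was at 32.1 ± 0.610 FPKM, and the log2 ratio of Wt1 over Tcf21 was -1.20 in each library. Tbx18, a T-box factor of the epicardium and proepicardium, was at 19.7 ± 0.962 FPKM (log2 ratio of Wt1 over Tbx18 -0.52 ± 0.09). Aldh1a2, the enzyme that makes retinoic acid in the epicardium, was at 19.8 ± 0.871 FPKM (log2 ratio of Wt1 over Aldh1a2 -0.53 ± 0.09). Wt1 was lower than each of these 3 genes in both libraries, by more than 0.32 log2 units. Next to Wt1, with 18 bases between the listed spans and on the opposite strand, lies the antisense gene listed as AI314831, whose gene ID carries the symbol Wt1os in the current name table. It was at 0.523 FPKM in replicate 1 and 0.915 FPKM in replicate 2.

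The surface proteins include the highest member. Upk3b encodes uroplakin 3B, a membrane protein best known from the urothelial plaques of the bladder and also used as a mesothelial marker. It was at 62.8 FPKM in replicate 1 and 63.4 FPKM in replicate 2 (chromosome 5, 136514366 to 136521173, plus strand), above 92.4% of the detected protein-coding symbols and 4.70 times the next member. The genes on either side of it were far lower, with Dtx2 at 8.30 ± 0.0816 FPKM and 2310043J07Rik listed at 0 in replicate 1 and 0.105 FPKM in replicate 2. Upk1b encodes a tetraspanin that pairs with uroplakins of class 3 in urothelium. It stood at 6.58 FPKM in replicate 1 and 7.25 FPKM in replicate 2 (chromosome 16, 38773297 to 38800316, minus strand), and the log2 ratio of Upk3b over Upk1b was 3.02 ± 0.08.

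The other uroplakins were low. Upk1a, the second tetraspanin of the plaque, was at 0.434 FPKM in replicate 1 and 0.353 FPKM in replicate 2. Upk3a, the paralogue of Upk3b in the plaque, was at 0.0288 and 0.0189 FPKM, and Upk2, which pairs with Upk1a, was listed at 0 in both libraries. Such a 0 may stand for an estimate that failed. Of the 5 uroplakin symbols, 2 reached 1 FPKM, and these held 99.3% of the family's summed FPKM in replicate 1 and 99.5% in replicate 2. On the log2 scale after adding 1 FPKM, Upk1b exceeded Upk1a by 2.50 ± 0.15 and Upk3b exceeded Upk3a by 5.97 ± 0.02. With an added 0.1 FPKM in place of 1 FPKM these ratios were 3.83 and 9.00.

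Msln encodes mesothelin, a cell-surface glycoprotein that binds mucin 16. It was at 3.56 FPKM in replicate 1 and 3.13 FPKM in replicate 2 (chromosome 17, 25885559 to 25891272, minus strand). Muc16, which encodes that partner, was lower at 0.503 and 0.453 FPKM (log2 ratio of Msln over Muc16 1.55 ± 0.07). The mesothelin-like gene Mslnl, 283 bases from Msln on the opposite strand, was at 0.0107 FPKM in replicate 1 and 0.00708 FPKM in replicate 2. Lrrn4 encodes a leucine-rich repeat membrane protein of mesothelium. It was at 7.96 FPKM in replicate 1 and 7.79 FPKM in replicate 2 (chromosome 2, 132694041 to 132706627, minus strand). Within its family Lrrn2 was also detected, at 5.16 ± 0.00793 FPKM, while Lrrn3 (0.932 ± 0.00624 FPKM), Lrrn1 (0.601 ± 0.0756 FPKM) and Lrrn4cl (0.342 ± 0.0147 FPKM) lay under 1 FPKM. The log2 ratio of Lrrn4 over Lrrn1 was 2.47 ± 0.05.

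Keratins form filaments from pairs of a type I and a type II chain, and simple epithelia use the type II chain Krt8 with the type I chains Krt18 and Krt19. Krt19 was at 13.8 FPKM in replicate 1 and 13.0 FPKM in replicate 2 (chromosome 11, 100002124 to 100009979, minus strand). Krt18 was at 10.1 FPKM in replicate 1 and 11.2 FPKM in replicate 2 (chromosome 15, 101858647 to 101862457, plus strand). Krt8 was at 3.59 FPKM in replicate 1 and 4.11 FPKM in replicate 2 (chromosome 15, 101827142 to 101834773, minus strand). Krt8 was thus the lowest of the 3 in both libraries, with no overlap between its values and theirs.

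The log2 ratio of Krt8 over its partner Krt18 was -1.27 ± 0.01, and Krt18 held 2.82 times the FPKM of Krt8 in replicate 1 and 2.73 times in replicate 2. Krt18 and Krt19 did not differ beyond the spread (log2 ratio of Krt18 over Krt19 -0.30 ± 0.16), although in replicate 1 alone the ratio was -0.41. The call rests on the limit used: the ratio is larger than the limit over genes of like level (0.23) and than the limit over all symbols with no filter (0.24), and it was counted as further apart under both. Krt7, a further type II chain of simple epithelia that is not among the 10 genes, was at 7.26 FPKM in replicate 1 and 7.47 FPKM in replicate 2, above Krt8 (log2 ratio of Krt8 over Krt7 -0.79 ± 0.08). With Krt7 counted, the type II chains Krt8 and Krt7 summed to 11.2 ± 0.515 FPKM and the type I chains Krt18 and Krt19 to 24.1 ± 0.157 FPKM. The type I sum was 2.21 times the type II sum in replicate 1 and 2.09 times in replicate 2. These sums leave out the type II chain Krt80 (3.56 ± 0.0373 FPKM) and the type I chain Krt10 (1.61 ± 0.180 FPKM), which were also detected. The ratios therefore hold for the named chains only.

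The level of Krt8 is uncertain because of a near-identical copy. The processed pseudogene Krt8-ps, on chromosome 7 of GRCm38 (23357125 to 23358069, plus strand), matches 941 bases of the Krt8 transcript, 48.1% of its length, at 98.6% identity with 13 differences and no gap. The match starts at the first coding base, covers 64.0% of the coding sequence, and its longest run without a difference has 299 bases. How the authors treated fragments that match several places is not given in the sources used here, and no row of the tables carries the gene ID of Krt8-ps. A further stretch of 102 bases of Krt8 is identical to the lincRNA gene Gm36026 on the opposite strand, for which no value is listed. For Krt18 and Krt19 no stretch of at least 75 bases at 98% identity or more was found in another gene. The part of the match to Krt8-ps with the most differences, coding bases 801 to 920 of Krt8, is given as GENCODE transcript sequence of GRCm38, 5′ to 3′, with the 6 differing bases in capitals.
Krt8: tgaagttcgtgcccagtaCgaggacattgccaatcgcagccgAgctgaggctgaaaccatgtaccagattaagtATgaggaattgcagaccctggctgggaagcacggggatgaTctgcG
Krt8-ps: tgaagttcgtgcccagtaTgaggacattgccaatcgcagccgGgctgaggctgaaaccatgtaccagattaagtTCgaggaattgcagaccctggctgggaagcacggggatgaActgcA

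Of 46 keratin symbols in the tables, 25 lie on chromosome 11 and 21 on chromosome 15, the home of the type II genes and, as its only type I gene, of Krt18. Of the 46, 6 reached 1 FPKM in both libraries. Besides Krt19, Krt18, Krt7 and Krt8 these were Krt80, at 3.56 ± 0.0373 FPKM, and Krt10, a type I chain of the upper epidermis, at 1.61 ± 0.180 FPKM. A further 20 keratins were listed at 0 in both libraries. Krt20, a keratin of gut and urothelium, was the highest of those that did not reach the limit, at 0.880 ± 0.0993 FPKM. The 3 marker genes held 63.2% of the summed keratin FPKM in replicate 1 and 63.4% in replicate 2. Krt15, the gene next to Krt19 on the same strand with 4860 bases between them, was at 0.494 and 0.608 FPKM.

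**Figure D2:**
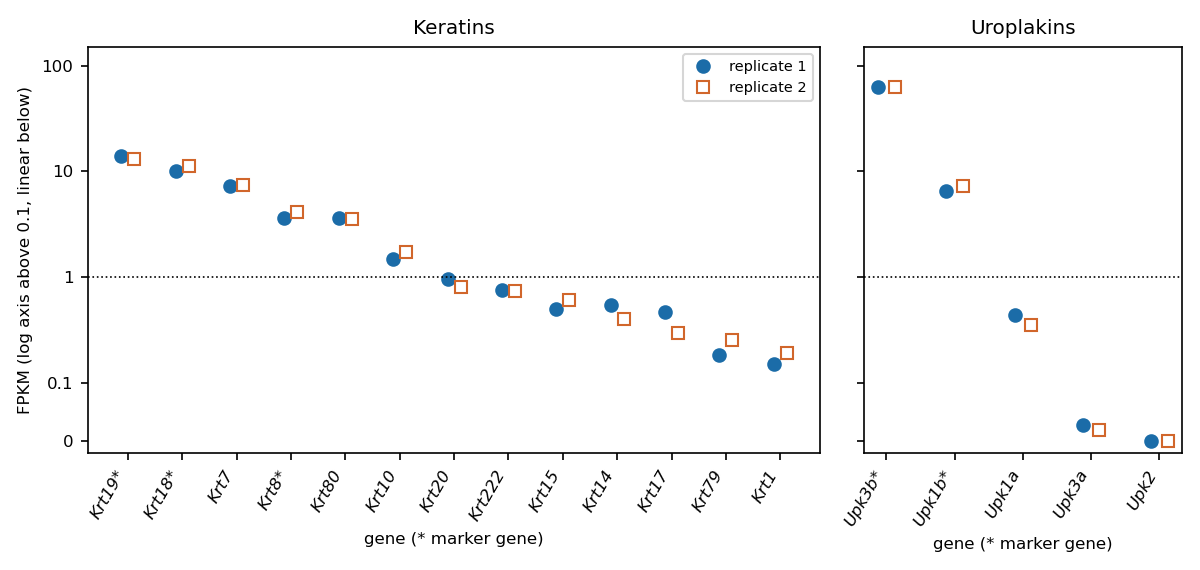
FPKM of keratins with a mean of 0.1 FPKM or more (left) and of all uroplakins (right) in replicate 1 (filled circles) and replicate 2 (open squares), on an axis that is logarithmic above 0.1 and linear below, with a dotted line at 1 FPKM. Asterisks mark the marker genes. Upk3b and Upk1b are the 2 uroplakins above the line, and 6 keratins lie above it.

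Start-site sequence was at hand for 6 of the 10 genes (Lrrn4, Mab21l2, Upk3b, Bnc1, Krt8 and Krt18), as RefSeq promoters on GRCm38.p6 from 250 bases before to 50 bases after the start. Those of Upk3b, the highest member, and of the neighbours Krt8 and Krt18, whose listed spans lie 23873 bases apart on opposite strands, are printed 5′ to 3′ with motif matches in capitals. They stand at chr5:136038246-136038545 (plus strand), chr15:102004293-102004592 (minus strand) and chr15:102027966-102028265 (plus strand).
Upk3b: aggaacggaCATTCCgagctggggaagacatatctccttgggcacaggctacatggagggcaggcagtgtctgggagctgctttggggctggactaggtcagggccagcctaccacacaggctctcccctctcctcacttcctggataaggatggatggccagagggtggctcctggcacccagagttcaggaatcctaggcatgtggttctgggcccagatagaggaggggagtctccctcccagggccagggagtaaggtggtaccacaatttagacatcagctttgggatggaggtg
Krt8: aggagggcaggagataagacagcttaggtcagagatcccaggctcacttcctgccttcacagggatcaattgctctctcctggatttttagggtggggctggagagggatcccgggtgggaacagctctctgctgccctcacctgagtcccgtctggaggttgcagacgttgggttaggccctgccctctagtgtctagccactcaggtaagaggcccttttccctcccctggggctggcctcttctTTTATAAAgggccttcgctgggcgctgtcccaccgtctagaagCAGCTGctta
Krt18: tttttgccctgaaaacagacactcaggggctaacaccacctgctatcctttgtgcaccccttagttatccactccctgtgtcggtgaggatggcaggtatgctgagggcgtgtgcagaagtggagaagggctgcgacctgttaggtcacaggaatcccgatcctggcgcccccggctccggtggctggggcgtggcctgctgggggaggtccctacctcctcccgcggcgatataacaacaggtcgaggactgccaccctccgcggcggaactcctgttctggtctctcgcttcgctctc

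The letters searched on both strands were TATAAA (the TATA box), GGGCGG (the GC box), GCGGGGGCG (a WT1-type site), GGAATG (the core bound by TEAD factors) and CAGCTG (an E-box). A GC box overlaps a WT1-type site wherever a further G follows that site. TATAAA was present in Krt8 and Mab21l2 and in 13.6% of 32817 promoters of that length. GGAATG was present in Upk3b and Lrrn4 (14.7% of promoters), CAGCTG in Krt8 (16.3%) and GGGCGG in Bnc1 (35.6%). GCGGGGGCG was present in none of the 6 and in 2.91% of promoters. The promoter of Bnc1 had a GC content of 83.3% and 50 CpG sites, against 58.7% and 2 CpG sites for Upk3b and medians of 52.7% and 7 over all promoters. The matches describe letters in these windows and nothing about binding in the heart.

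The order of the 10 genes by mean level was Upk3b, Krt19, Wt1, Krt18, Lrrn4, Upk1b, Bnc1, Krt8, Msln and Mab21l2. Of the 9 neighbouring steps in that order, 4 were larger than 0.32 log2 units with the same sign in both libraries. These were the steps below Upk3b (2.15), Krt18 (0.40), Upk1b (0.39) and Msln (0.48). Krt19 and Wt1 changed places between the libraries. Wt1 and Krt18, Lrrn4 and Upk1b, Bnc1 and Krt8, and Krt8 and Msln kept their order in both libraries, but by less than the limit. The spread between the libraries is larger for low genes. Against genes within 2-fold of the lower gene the limit is 0.62 for the step from Msln to Mab21l2, which is then inside the spread, and 0.23 for the step from Wt1 to Krt18 (0.30), which is then beyond it. With a limit over all symbols and no filter (0.24) the steps from Wt1 to Krt18 and from Bnc1 to Krt8 were also beyond it, for 6 of 9. Over all 14 pairs of a member and a related gene, 12 were further apart than the limit, 7 with the member higher and 5 with it lower. The pairs that were not were Krt18 with Krt19, under this limit, and Mab21l2 with Lrba. The share over other pairs of genes was not computed, so the counts of pairs and of steps describe these genes alone.

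**Figure D3:**
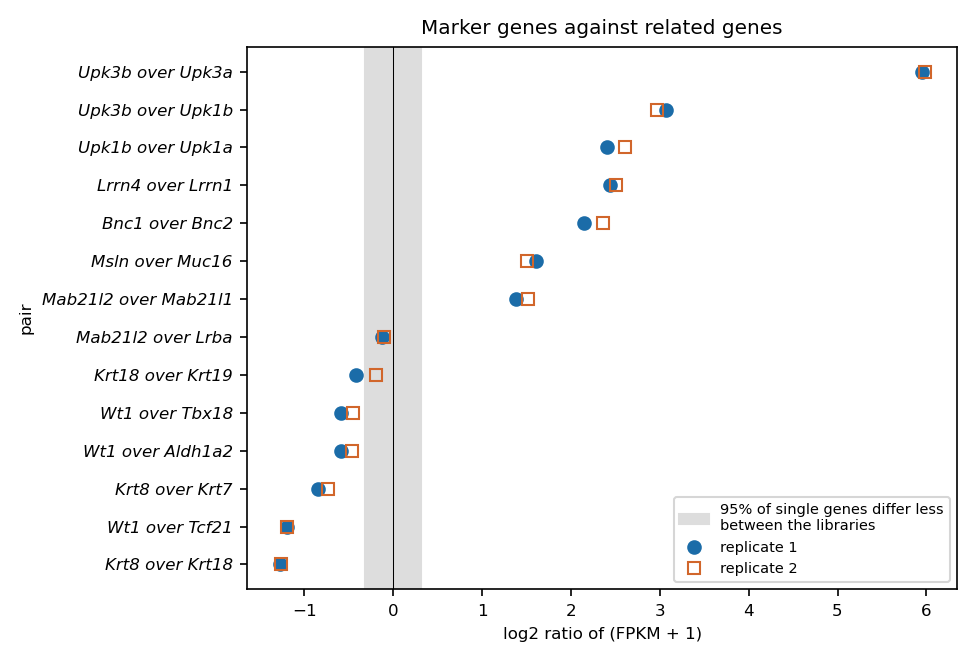
Log2 ratio of (FPKM + 1) for 14 pairs of a marker gene and a related gene, in replicate 1 (filled circles) and replicate 2 (open squares). The grey band spans 0.32 log2 units to each side of 0, the size below which 95% of single genes differed between the libraries, and the mean ratios run from -1.27 for Krt8 over Krt18 to 5.97 for Upk3b over Upk3a.

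Between the libraries the 10 genes differed by less than the limit, though several differed by more than most genes of their level. Differences are log2(FPKM + 1) in replicate 2 minus the same in replicate 1. They ranged in size from 0.01 for Upk3b to 0.15 for Krt8, all under the 0.32 limit, and none reached 2-fold, against 0.736% of the 12637 symbols. Replicate 2 was higher for 7 of the 10 genes, against 33.4% of the 12637 symbols, and replicate 1 for Krt19, Msln and Lrrn4. With the median difference of these symbols set to 0, Lrrn4 was also higher in replicate 2, for 8 of the 10 genes. That setting makes about as many symbols higher in either library by construction, so the 33.4% does not apply to it. Without it, the median difference was 0.05 over the 10 genes and -0.04 over all symbols whose mean level was at least 1 FPKM. Among symbols within 2-fold of its level, 83.3% differed less than Krt18 and 14.2% less than Upk3b, the extremes among the 10 genes. The share was 76.7% for Krt8, 74.7% for Upk1b, 72.5% for Msln, 70.7% for Bnc1 and 66.1% for Krt19. It was 33.0% for Mab21l2, 32.6% for Wt1 and 22.6% for Lrrn4.

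**Figure D4:**
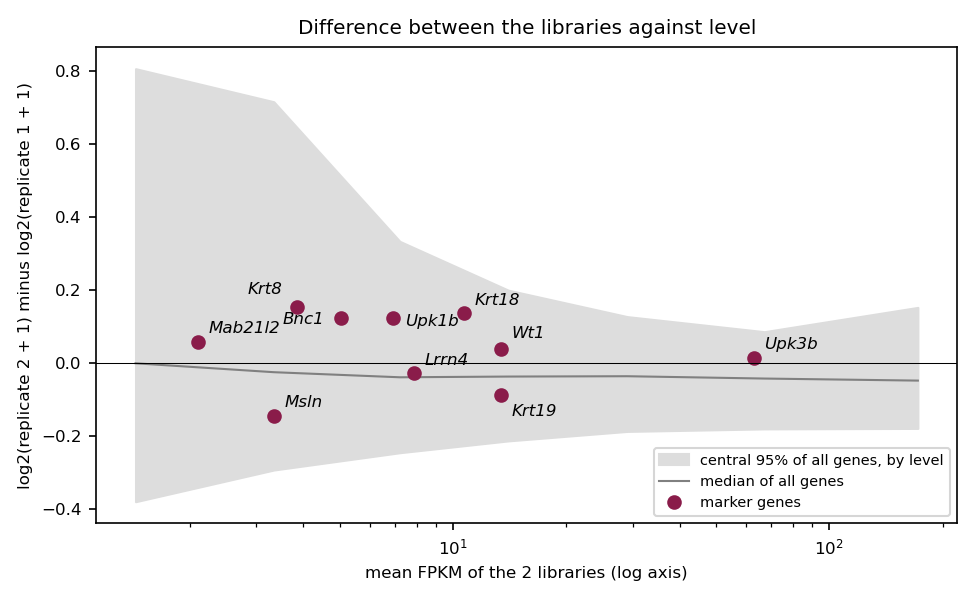
Difference between the libraries (log2(FPKM + 1), replicate 2 minus replicate 1) against the mean FPKM (log axis) for the 10 marker genes, over the central 95% (grey) and the median (line) of all genes averaging at least 1 FPKM, in 7 bins of level. All 10 genes lie inside the grey band, between -0.14 for Msln and 0.15 for Krt8.

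Other genes of the epicardium and mesothelium were present beside the members. Of all protein-coding symbols 52.4% reached 1 FPKM in both libraries, and the lists from here on were chosen with earlier results of these data known. Of 10 further epicardial genes 9 reached 1 FPKM in both libraries (median 13.2 FPKM), led by Tbx20, a T-box factor, at 91.9 ± 6.23 FPKM and Hand2 at 42.7 ± 0.570 FPKM, which the myocardium or endocardium also expresses. Sema3d, a guidance factor of the epicardium, was at 6.72 ± 0.799 FPKM, Itga4, an adhesion receptor needed to keep the layer attached, at 3.93 ± 0.00456 FPKM, Aldh1a1 at 3.59 ± 0.296 FPKM and Scx at 2.68 ± 0.307 FPKM. Lhx2 did not reach it, at 0.242 ± 0.0148 FPKM. Of 8 further mesothelial genes 6 reached 1 FPKM (median 6.33 FPKM). Ezr, which encodes the membrane linker ezrin, was at 33.9 ± 0.550 FPKM, Nkain4 at 14.3 ± 0.543, the surface glycoprotein gene Pdpn at 9.90 ± 0.0587, Gpm6a at 7.02 ± 0.000141, the Wnt agonist gene Rspo1 at 5.65 ± 0.155 and Calb2, which encodes calretinin, at 1.15 ± 0.0593 FPKM. Muc16 and Dmkn (0.249 ± 0.0510 FPKM) were under the limit.

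Genes reported as regulated by Wt1, factors of epithelial-mesenchymal transition, and polarity and junction genes were mostly present, against 52.4% of protein-coding symbols. Of 8 genes reported as regulated by Wt1 in epicardial or epicardium-derived cells 7 reached 1 FPKM in both libraries. Among these, Bmp4, a signalling ligand, was at 21.7 ± 0.571 FPKM, Pdgfra, a receptor of fibroblast precursors, at 15.7 ± 1.11, Snai1, a repressor of epithelial genes, at 7.09 ± 0.688 and Wnt4 at 2.40 ± 0.0812 FPKM. Cdh1, the gene of epithelial cadherin, was at 0.0220 FPKM in replicate 1 and 0.0112 FPKM in replicate 2. Cdh2, the cadherin of myocardium and mesenchyme, was at 64.8 ± 3.68 FPKM. All 6 factors of epithelial-mesenchymal transition reached 1 FPKM, from Twist2 at 1.42 ± 0.267 to Twist1 at 21.9 ± 0.729 FPKM. Of 10 polarity and junction genes 7 reached 1 FPKM, Cdh2 and the desmosome genes Jup (35.9 ± 1.39 FPKM) and Dsp (27.7 ± 2.42 FPKM) highest, while the tight junction genes Cldn1 (0.768 ± 0.0714 FPKM) and Ocln (0.478 ± 0.0423 FPKM) and the apical polarity gene Crb3 (0.0524 ± 0.0281 FPKM) did not. The myocardium also expresses several of these. Which cells of the heart held the RNA of the genes in this paragraph was not tested.

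Genes of mesenchyme that the epicardium gives rise to, which other cells of the heart also use, were all present (8 of 8, median 28.6 FPKM). Col3a1 at 189 ± 18.5 FPKM and Col1a1 at 77.8 ± 14.7 FPKM were the highest and Cspg4 at 3.32 ± 0.416 FPKM the lowest. Each of the 8 was higher in replicate 1, as were 66.6% of all symbols averaging at least 1 FPKM, and the list summed to 417 FPKM in replicate 1 and 365 FPKM in replicate 2. For the 10 marker genes the ratio of the sums, replicate 2 over replicate 1, was 1.02.

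**Figure D5:**
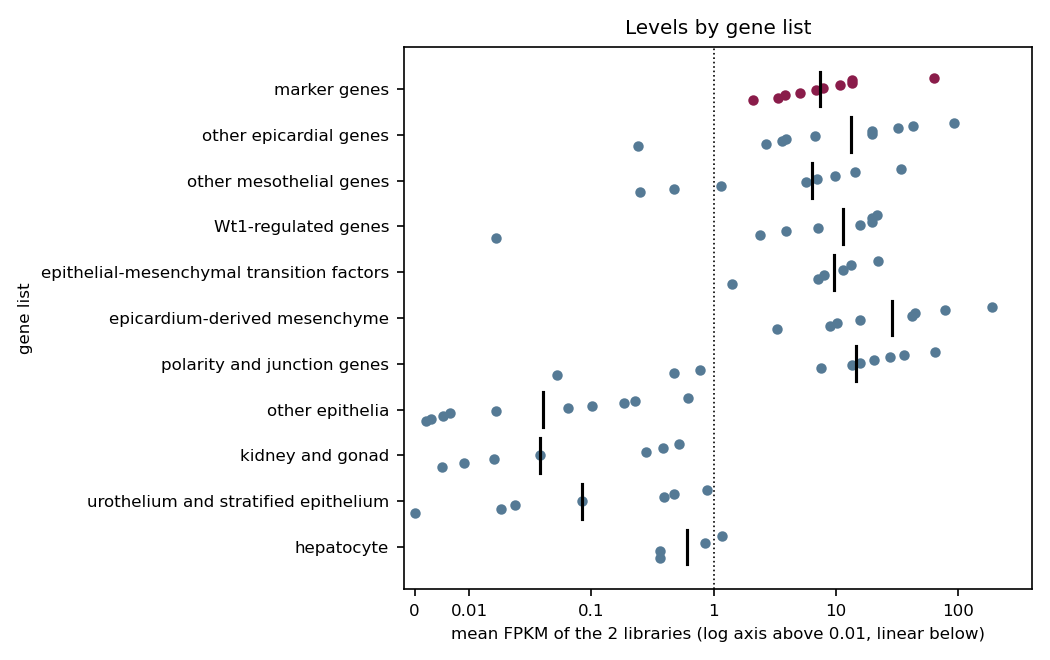
Mean FPKM of the 2 libraries (logarithmic above 0.01, linear below) for each gene of 11 lists, with the median of each list as a vertical bar and a dotted line at 1 FPKM. All 10 marker genes lie right of the line, and the 10 genes of other epithelia, the 7 of kidney and gonad and the 7 of urothelium and stratified epithelium lie left of it.

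Markers of tissues that share genes with the 10 were low. Of 10 genes of endodermal and other epithelia none reached 1 FPKM in either library (Epcam, Cdh1, Cldn6, Cldn7, Esrp1, Grhl2, Foxa1, Foxa2, Nkx2-1 and Sox2). Cldn7 was the highest at 0.611 ± 0.0568 FPKM, Epcam was at 0.220 FPKM in replicate 1 and 0.237 FPKM in replicate 2, and the list summed to 1.21 FPKM in replicate 1 and 1.24 FPKM in replicate 2. Kidney, podocyte and gonad genes, from tissues that also express Wt1, reached 1 FPKM in 0 of 7 cases, with sums of 1.10 and 1.40 FPKM in replicates 1 and 2. Lhx9 was the highest there at 0.523 ± 0.154 FPKM, and Pax8 and Nr5a1 were listed at 0 in replicate 2. The list of urothelium and stratified epithelium also had 0 of 7 genes at 1 FPKM and summed to 2.06 FPKM in replicate 1 and 1.69 FPKM in replicate 2.

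Hepatocyte genes were low. The difference, replicate 2 minus replicate 1, was 0.42 log2 units for Afp, 0.43 for Alb, 0.31 for Ttr and 0.239 for Apoa2. Afp and Alb were above the 0.32 limit, and all 4 were above the limit with no filter (0.236). Afp lay inside the central range of genes at 1 to 2 FPKM (-0.38 to 0.81). Alb, Apoa2 and Ttr averaged under 1 FPKM, where no such range was computed. Afp was at 0.858 FPKM in replicate 1 and 1.49 FPKM in replicate 2, and Alb at 0.577 and 1.12 FPKM. All 4 genes of that list were higher in replicate 2, and its sum was 1.91 FPKM in replicate 1 and 3.60 FPKM in replicate 2. The liver and other organs of the chest and belly carry mesothelium with the same markers, and the part of such tissue in the levels of the 10 genes was not tested. The labelled tissue showed its own markers, with the 6 heart genes Actc1, Myl2, Myl7, Tnnt2, Nppa and Nkx2-5 between 54.1 and 4314 FPKM, and the 5 endothelial and endocardial genes lay between 10.1 and 37.3 FPKM.

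The transcripts of the 10 genes varied in build. Taking the longest coding transcript of each in GENCODE, lengths ran from 1437 bases for Krt18 to 4646 bases for Bnc1 (median 2434, against 2793 over 20040 matched protein-coding genes). Exon counts ran from 1 for Mab21l2 to 16 for Msln. GC content had a median of 53.8%, against 49.4% over all, and was lowest for Mab21l2 (47.5%) and highest for Krt19 (57.6%). The genes lie on 8 chromosomes, with Wt1 and Lrrn4 on chromosome 2 and Krt8 and Krt18 on chromosome 15.

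The summed FPKM of the tables was 388230 in replicate 1 and 382561 in replicate 2. Depth is known only as a ratio. The lowest values rest on very few fragments. Among 2828 symbols above 0 and under 0.1 FPKM in each library, the commonest ratio of replicate 2 to replicate 1 was 1.33, so replicate 1 was the deeper library by about that factor. No counting interval can be given for the values.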

How the data were processed

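RNA sequencing was measured in 2 libraries of embryonic mouse heart. The authors deposited 1 table per library with an FPKM value for each of 37620 gene rows. Libraries were made from total RNA using the Illumina TruSeq RNA v2 protocol, then size-selected, per the labels' protocols. GSNAP, Cufflinks, Cuffnorm and the builds mm9 and hg19 are named in the submitters' processing notes, without versions or roles. No source used here gives the gene annotation, the use of strand or the handling of fragments with several matches. Gene coordinates come from the tables and are on mm9, with the last gene of chromosome 1 ending at 197054592.

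Rows of the same symbol were summed. Detection means at least 1 FPKM in both libraries, and log2 values were taken after adding 1 FPKM, which understates ratios of low genes. An exact two-sided sign-flip test on 2 libraries cannot go below p = 0.5, and no p-values are given. A ratio between genes, or a difference between libraries, was read against the size under which 95% of genes averaging at least 1 FPKM differed between the libraries. That limit does not cover errors that both libraries share. FPKM carries no counts, so no count model was fitted, and likeness of pattern was not computed from 2 libraries of 1 group.

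The members, the lists and the pairs were chosen with earlier results of these data known. All members and pair genes are named, as are keratins at 1 FPKM or more in both libraries, and copies or overlapping genes. Genes of lists of up to 10 symbols could be named, and not all of them are. Krt15, AI314831 and the neighbours of Upk3b lie outside these rules. Lrrn2 and Krt20 lie inside them but were singled out after their values were seen. Transcript lengths, exon overlaps and near-identical copies (98% identity or more over at least 75 bases, BLAST 2.17.0) came from GENCODE M21 on GRCm38, matched by gene ID for all 10 members. Promoters came from RefSeq on GRCm38.p6, matched by symbol. Coordinates of the builds were not mixed.

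The alternatives were another pseudocount, detection limit and filter, the highest row per symbol, rescaling of the libraries, the list without keratins and each library alone. Limits from genes of like level for the pairs and the order of levels, the limit with no filter for single pairs and the order, and the rescaled count of directions were added after the data were seen. The direction and size of differences between libraries and the depth ratio were tested on simulated data with planted differences. The ratio of a gene to itself was also checked. The calls of pairs and of neighbouring steps, the search for copies and the promoter search were not tested in this way. The scripts ran under Python 3.11.15 with pandas 2.3.3, NumPy 2.4.6 and Matplotlib 3.10.9.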

Additional observations from a re-analysis of the deposited data

How the results depend on the processing

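Of the alternatives, 37 could not change their result by construction: with 2 libraries either value lies within 1 SD of the mean, each member has a single row, and a gene at 1 FPKM in both libraries is so in each and at a lower limit. They say nothing about stability. With a detection limit of 5 FPKM in both libraries, 6 of the 10 genes were detected in place of 10, and Bnc1, Krt8, Msln and Mab21l2 lay below it in at least 1 library. Without the 3 keratins the median level of the members was 6.91 FPKM, against 7.39 FPKM. With each library left out in turn, the median lay between 7.27 and 7.52 FPKM, and the number of pairs further apart than the limit lay between 12 and 13. The pair that joined was Krt18 with Krt19, at -0.41 without replicate 2. The same pair, at -0.30, was further apart than the limit over all symbols with no filter and than that over genes of like level, for 13 pairs in each case. The other 13 pairs kept their call under both limits. The number of neighbouring steps in the order of levels beyond the limit was 4, and 6 with no filter. It was also 4 over genes of like level, where the step from Wt1 to Krt18 came in and that from Msln to Mab21l2 dropped out. The largest difference of a member between the libraries, that of Krt8, was 0.15, and 0.19 with a pseudocount of 0.1 FPKM, under the limit in each case. No paired analysis was possible because both libraries belong to 1 group. The unknown depth limits what can be said of genes listed near 0.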
